A study of Homo sapiens with 6 samples.

Results

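Par-4, the protein of PAWR, acts through the proteins it binds, and the RNA of 10 genes was followed here: PAWR itself, 2 genes whose products send Par-4 to the proteasome (SPSB1 and FBXO45), the kinases PRKCZ, PRKCI, DAPK3 and AKT1, and the nuclear partners WT1, AATF and THAP1. The members were listed by name for what their products do to Par-4, with earlier results of these data known, and were looked up among the 65988 Ensembl gene identifiers of each count file, where all 10 symbols were found. The libraries come from U87MG, an established human glioblastoma line that the labels list as wild type. Cells received vehicle (control, 3 libraries) or RSL3 at 2 µM (3 libraries). RSL3 inhibits the lipid peroxidase GPX4 and so sets off ferroptosis, an iron-dependent death by lipid peroxidation. The labels give no treatment time, which the study puts at a day. Its general statement on replication speaks of biologically independent experiments or samples. No source used here says for these libraries in particular whether the 3 of a group came from separate cultures. The p-values therefore measure the spread between these libraries, which may be technical. All libraries are of 1 cell line, and RNA levels do not show the amount or the binding of a protein.

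Par-4 is a leucine zipper protein first found in prostate cells undergoing apoptosis. It binds and inhibits the atypical protein kinases C encoded by PRKCZ and PRKCI, which lie upstream of NF-kB, and it binds the transcription factor WT1 and represses transcription with it. It also binds DAPK3 (ZIP kinase), which drives membrane blebbing, while AKT1 phosphorylates Par-4 and lets 14-3-3 proteins hold it in the cytoplasm. SPSB1 and FBXO45 are SPRY-domain proteins that present substrates to ubiquitin ligases, SPSB1 with cullin 5, elongins B and C and RNF7, and FBXO45 with SKP1 and MYCBP2.

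The site on Par-4 that SPSB1 grasps is a short peptide, and its coding sequence is shown because it links PAWR to the tested member with the largest change. The stretch is in exon 2 of the 7 exons of PAWR, in coding sequence, at chr12:79690005-79690067 of GRCh38, on the minus strand. Capitals mark the 5 codons, numbers 68 to 72 of the open reading frame, of the core of that peptide.
PAWR: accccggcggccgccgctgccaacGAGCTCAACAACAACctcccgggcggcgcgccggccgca
Among 19580 human coding sequences, 1 per gene of GENCODE v44, the reading frame of 5 (0.0255%) encodes the same residues as these codons, those of PAWR, CDC14A, DNAH1, FGB and KIF16B. The match is one of letters and says nothing of binding by the other proteins.

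Total counts lay between 27813462 and 43306335 per library. Of 9 glioblastoma and astroglial markers, 7 had a mean normalized count of at least 10 (a normalized count is a count scaled by edgeR's TMM factors to the mean library size), while S100B and SOX2 were near 0. Their summed count, mostly VIM, CD44 and TNC, was between 140000 and 141000 in the control libraries and between 124000 and 129000 in the RSL3 libraries. Within it VIM, CD44 and CHI3L1 were called lower by edgeR (log2 fold changes -0.29, -0.39 and -0.56). TNC was called higher (0.21), and GFAP, OLIG2 and NES were not called. Markers of other cells moved as well. The neuron sum, mostly SYT1, was 1030 to 1120 in control and 1130 to 1160 under RSL3, where SYT1 rose (log2 fold change 0.24, edgeR adjusted p = 0.00214) and SNAP25 fell (-1.04, 4.84e-05). The endothelial sum, nearly all VWF, was 66.8 to 97.1 in control and 29.1 to 50.9 under RSL3, and VWF fell (log2 fold change -1.33, edgeR adjusted p = 0.00111). The sums for microglia and leukocytes and for epithelium were at most 29.5 in any library and overlapped between the groups. The part of these markers in the results below was not tested.

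Each gene that passed edgeR's filter on low counts was compared between RSL3 and control with edgeR's quasi-likelihood test, with Benjamini-Hochberg adjustment of p across the 16105 genes tested. A gene is called at an adjusted p under 0.05. The filter passed 8 of the 10 members and left out WT1 and AATF. Of these 8, 2 were called higher (SPSB1 and PAWR) and 1 lower (AKT1), against 25.6% of all genes tested that were called in either direction, 12.9% higher and 12.7% lower. At an unadjusted p under 0.05 there were 5 members, against 35.9% of all genes tested. The median log2 fold change was 0.03 over the 8 members and -0.0044 over all genes tested. The members that moved were therefore SPSB1, which presents Par-4 for degradation, PAWR itself and, by a small amount, AKT1, which restrains Par-4. The other 5 members tested, FBXO45, PRKCI, PRKCZ, DAPK3 and THAP1, were not called.

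SPSB1 (ENSG00000171621, chromosome 1 of GRCh38, 9292894 to 9369532) rose in RSL3-treated cells. Its normalized counts were 2825, 2746 and 2682 in control replicates 1, 2 and 3 and 3763, 3654 and 3411 in RSL3 replicates 1, 2 and 3. Every RSL3 library was above every control library, and groups that do not overlap were found in 38.6% of all genes tested. The mean went from 2751 ± 71.6 (SD, n = 3) to 3609 ± 180.2 (SD, n = 3), a log2 fold change of 0.39 ± 0.04 (SE) with an adjusted p of 2.13e-07 by edgeR. This is a fold of 1.31, with a 95% interval of 1.24 to 1.39, and 84.0% of the genes tested had a smaller change in either direction. No other gene of GENCODE v44 shares exon bases with SPSB1. The call was kept under every alternative that was run, with a log2 fold change between 0.36 and 0.43.

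PAWR (ENSG00000177425, chromosome 12, 79574979 to 79690964), the substrate, rose as well, with a smaller estimated change than SPSB1 and an interval that overlaps that of SPSB1. The normalized counts of the control libraries were 1127, 1088 and 1089, and those of the RSL3 libraries were 1403, 1370 and 1262. The log2 fold change was 0.29 ± 0.05 (SE), and edgeR gave an adjusted p of 0.000278. The 95% interval of the fold was 1.13 to 1.32. In both genes RSL3 replicate 3 was the lowest of the treated libraries. Across the genes tested that library also differed least from each control library. Its chi-square per degree of freedom was 17.3 to 20.6, against 22.9 to 29 for the other RSL3 libraries. Whether this bears on its place in SPSB1 and PAWR was not tested.

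FBXO45 (ENSG00000174013, chromosome 3, 196568611 to 196589059) did not share the rise. It had 761.7, 727.2 and 766.5 normalized counts in the control libraries and 672.7, 641.0 and 732.1 in the RSL3 libraries. The groups overlapped, because RSL3 replicate 3 was above control replicate 2. The log2 fold change was -0.14 ± 0.07 (SE), and edgeR gave an adjusted p of 0.138. The 95% interval of the fold ran from 0.822 to 1.00. WDR53 takes in 1.07% of the FBXO45 exon bases, where counting without strand cannot tell the genes apart.

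A ratio of counts within a library does not depend on how libraries are scaled to each other, though the size of a ratio depends on the lengths of both genes. For each count on SPSB1 there were 0.399, 0.396 and 0.406 counts on PAWR in the control libraries and 0.373, 0.375 and 0.370 in the RSL3 libraries. This ratio was lower in every RSL3 library than in any control library, with a mean of 0.400 ± 0.00514 (SD, n = 3) in control and 0.373 ± 0.00246 (SD, n = 3) under RSL3. For each count on FBXO45, PAWR had 1.48, 1.5 and 1.42 counts in the control libraries and 2.09, 2.14 and 1.72 in the RSL3 libraries. Against this degrader the ratio was higher in every RSL3 library. The ratio of SPSB1 to FBXO45 was 3.66 ± 0.145 (SD, n = 3) in control and 5.32 ± 0.573 (SD, n = 3) under RSL3. The groups did not overlap in any of these 3 ratios, which are built from the same genes, so each follows from the others. Among single genes, 38.6% of those tested did not overlap between the groups. The share over ratios of other gene pairs was not computed. No test was run on the ratios.

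**Figure D1:**
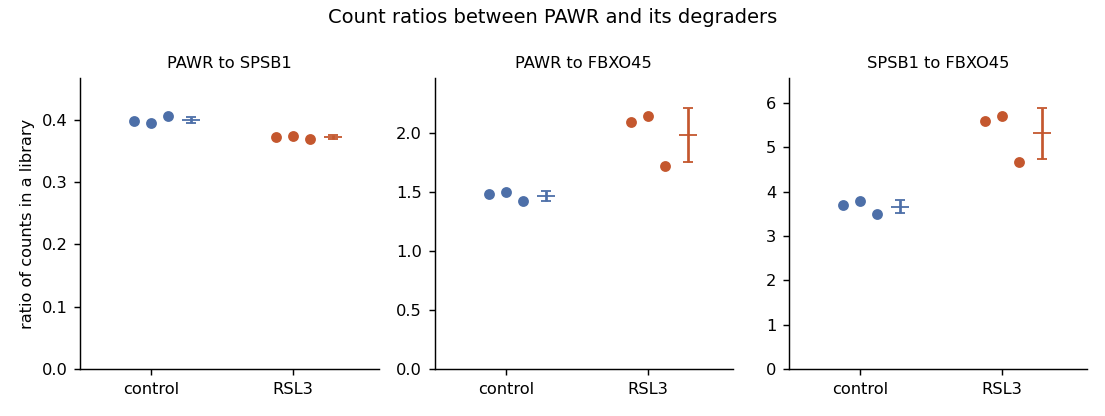
Ratio of raw counts within each library (vertical axes from 0) for PAWR to SPSB1, PAWR to FBXO45 and SPSB1 to FBXO45 in control (blue) and RSL3 (orange); points are libraries, bars the mean ± SD. PAWR to SPSB1 is lower in all RSL3 libraries (0.370 to 0.375 against 0.396 to 0.406), and the other ratios are higher in all of them.

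The list of ligase parts and relatives has 10 genes, of which 8 were tested and 0 called by edgeR, against 25.6% of all genes tested, with 2 at an unadjusted p under 0.05, RNF7 and TRIM21. DESeq2 also called 0 of them. RNF7, the RING subunit that works with cullin 5, had 3592 ± 84.1 (SD, n = 3) normalized counts in control and 3808 ± 40.4 (SD, n = 3) in RSL3-treated cells (edgeR adjusted p = 0.0757). CUL5, the cullin itself, had a log2 fold change of 0.12 ± 0.06 (SE), and edgeR gave an adjusted p of 0.147. The elongin genes ELOB and ELOC had -0.01 and 0.05. On the FBXO45 side, SKP1 was at -0.04 and MYCBP2 at -0.02. TRIM21, another ubiquitin ligase linked to Par-4, had a log2 fold change of -0.14 (edgeR adjusted p = 0.138). SPSB2, the relative of SPSB1 that was tested, had 549.9 ± 11.3 (SD, n = 3) normalized counts in control and 564.5 ± 33.1 (SD, n = 3) in RSL3-treated cells. SPSB4 was at 0 in all 6 libraries, and SPSB3 had between 0 and 3 counts per library. SPSB3 shares 69% of its exon bases with EME2 and IGFALS, where reads cannot be assigned without strand or are ambiguous. The cause of its low counts was not tested, and they are not taken as its level. Over the 8 genes tested the median log2 fold change was 0.01.

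Of the atypical kinases, PRKCI was well measured and PRKCZ was near the floor of the counts. PRKCI (ENSG00000163558, chromosome 3, 170222424 to 170305977) had 2160, 2385 and 2181 normalized counts in the control libraries and 2318, 2421 and 2444 in the RSL3 libraries. The groups overlapped only because control replicate 2 lay above RSL3 replicate 1. The log2 fold change was 0.10 ± 0.04 (SE), and edgeR gave an adjusted p of 0.101. The 95% interval of the fold was 1.01 to 1.14. Without control replicate 2 it was 0.15 and passed the threshold (edgeR adjusted p = 0.0215).

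PRKCZ (ENSG00000067606, chromosome 1, 2050411 to 2185395) had raw counts of only 24, 14 and 11 in the control libraries and 9, 23 and 13 in the RSL3 libraries. The libraries of the groups lay among each other, with an edgeR adjusted p of 0.967. The 95% interval of the fold, 0.553 to 1.90, is wide, and a change within it was not detectable at this depth. Other genes, among them PRKCZ-AS1, cover 12.2% of the PRKCZ exon bases, so even these few reads cannot all be assigned to it. Within a library there were between 101 and 224 counts on PRKCI for each count on PRKCZ, and per length of exon the levels of these genes were also far apart, as given below.

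DAPK3 (ENSG00000167657, chromosome 19, 3958453 to 3971123) was among the steadiest members. The counts were 2684, 2692 and 2675 after normalization in control and 2622, 2638 and 2676 in RSL3-treated cells. The third RSL3 library lay between the control libraries, so the groups overlapped. The log2 fold change was -0.02 ± 0.04 (SE), and edgeR gave an adjusted p of 0.739. The 95% interval of the fold was 0.937 to 1.04. A rise or fall of DAPK3 RNA as large as that of SPSB1 or PAWR lies outside this interval.

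AKT1 (ENSG00000142208, chromosome 14, 104769349 to 104795751) was lower in all 3 RSL3 libraries. Its normalized counts were 3566, 3621 and 3679 in control and 3312, 3406 and 3389 under RSL3. The log2 fold change was -0.10 ± 0.03 (SE), and edgeR gave an adjusted p of 0.0274. This is a fold of 0.930 with a 95% interval of 0.886 to 0.977, and 40.7% of the genes tested changed by less. The call rested on the full set of libraries. It was kept without control replicate 1 (edgeR adjusted p = 0.0324), and it was lost without control replicate 2 (0.0713), without control replicate 3 (0.106), without RSL3 replicate 1 (0.116), without RSL3 replicate 2 (0.0579) and without RSL3 replicate 3 (0.0523). Another gene, ENSG00000258430, covers 6.05% of its exon bases.

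The promoters of the called members are shown because the RNA of these genes differed between the groups. The RefSeq table of promoters (GRCh38.p14) held 8 of the 10 members and not SPSB1 or THAP1. Each line gives the 250 bases before the start of transcription, 5′ to 3′ on the strand of the gene, for PAWR at chr12:79690965-79691214 (minus strand) and for AKT1 at chr14:104795749-104795998 (minus strand). Capitals mark matches on either strand to GGGCGG, the GC box bound by SP1, and overlapping matches run together.
PAWR: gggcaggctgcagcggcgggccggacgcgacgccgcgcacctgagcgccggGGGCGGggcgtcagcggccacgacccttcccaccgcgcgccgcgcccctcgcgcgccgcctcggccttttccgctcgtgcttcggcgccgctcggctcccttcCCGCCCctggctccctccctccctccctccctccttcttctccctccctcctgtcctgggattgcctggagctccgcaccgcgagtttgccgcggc
AKT1: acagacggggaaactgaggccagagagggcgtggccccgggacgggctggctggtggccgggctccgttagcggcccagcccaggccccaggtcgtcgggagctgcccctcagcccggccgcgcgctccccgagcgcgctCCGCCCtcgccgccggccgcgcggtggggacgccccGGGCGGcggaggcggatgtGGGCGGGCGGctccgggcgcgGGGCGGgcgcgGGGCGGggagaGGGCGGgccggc
The PAWR window held 2 such matches and the AKT1 window 7, and 42.6% of the 35116 promoter windows of that length in the table held at least 1. Members that were not called or not tested held them too, with 1 each for PRKCZ, PRKCI, WT1 and DAPK3 and 2 for AATF. FBXO45 had 0. The matches are therefore not particular to the called members. Both windows are rich in G and C, at 77.2% and 83.2%. The letters TGACNNNGC, the core of the antioxidant response element bound by NRF2, were in neither window, and 10.9% of all windows held them. CACGTG, an E box of the kind that the lysosomal regulator TFEB binds, was also in neither, and 6.34% of all windows held it.

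THAP1 (ENSG00000131931, chromosome 8, 42836674 to 42843325) encodes a zinc finger protein that meets Par-4 in PML nuclear bodies. It had 654.8, 716.1 and 575.1 normalized counts in control and 683.1, 626.4 and 653.2 in RSL3-treated cells. All 3 RSL3 libraries lay within the range of the control libraries. The log2 fold change was 0.02 ± 0.08 (SE), and edgeR gave an adjusted p of 0.915. The 95% interval of the fold was 0.903 to 1.13. The gene ENSG00000286837 overlaps 12.3% of its exon bases.

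WT1 (ENSG00000184937, chromosome 11, 32387775 to 32435564) had 6, 2 and 2 raw counts in control and 1, 1 and 1 in RSL3-treated cells, 13 counts over all 6 libraries. That is too few for the filter, so no fold or test is given. WT1 RNA was thus close to the limit of detection under either condition.

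AATF (ENSG00000275700, chromosome 17, 36948925 to 37056871), whose product antagonises Par-4, had 8, 0 and 4 raw counts in control and 8, 3 and 0 in RSL3-treated cells. AATF serves ribosome assembly in dividing cells, and 23 counts over 6 libraries are few for such a gene. Its neighbours were examined after these values had been seen. Of the 32 other protein-coding genes within 1 Mb, 26 (81.2%) had a mean below 10 counts per library, against 35.6% of the 19578 protein-coding genes in the files. Around the other members this share was between 7.14% (WT1) and 33.3% (AKT1). The neighbours with few counts include ZNHIT3 (0 to 8 counts per library), MYO19 (0 to 6) and DHRS11 (0 to 6), while ACACA, the nearest of those named, had 90 to 140. The cause of the low counts was not tested, and the AATF values are given as counts, not as its level in these cells. The partners of AATF in ribosome assembly had far more counts, NOL10 at 1447 ± 49.1 (SD, n = 3) and NGDN at 500.1 ± 31.3 (SD, n = 3) normalized counts in control cells.

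**Figure D2:**
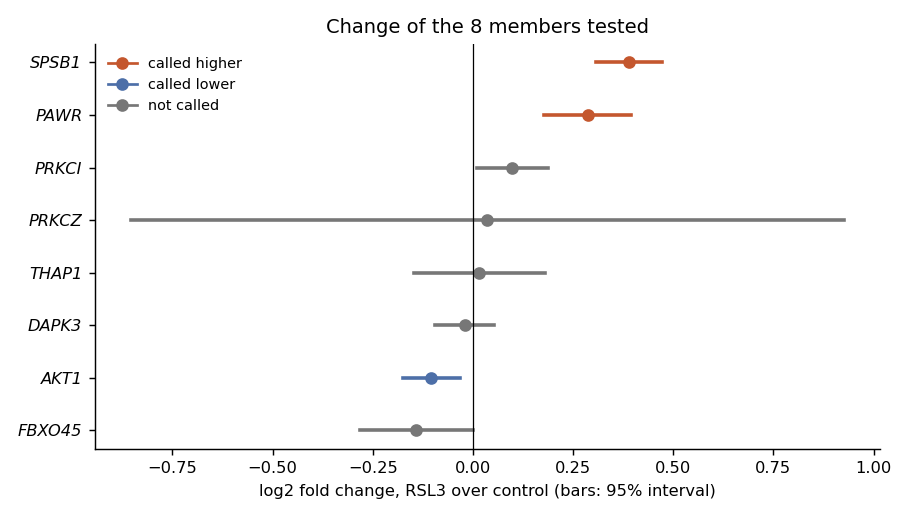
Log2 fold change of RSL3 over control (horizontal axis) of the 8 members tested, with the 95% interval from edgeR's fit as a bar; orange is called higher, blue called lower and grey not called at an adjusted p of 0.05. SPSB1 (0.39) and PAWR (0.29) lie clear of 0, AKT1 (-0.10) lies just below it, and the bar of PRKCZ, the tested member with the fewest counts, is the widest.

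To compare genes with each other, counts were divided by the length of the merged exons, giving a level per length (counts per kilobase of exon, scaled by library size as CPM). SPSB1 had the highest level of the members, at 23.8 ± 0.619 (SD, n = 3) in control and 31.2 ± 1.56 (SD, n = 3) in RSL3-treated cells. DAPK3 followed at 22.2 ± 0.0722 and 21.9 ± 0.228, then PRKCI at 11.4 ± 0.629 and 12.1 ± 0.339. AKT1 was at 9.69 ± 0.151 and 9.02 ± 0.135, and THAP1 at 7.73 ± 0.842 and 7.79 ± 0.337. These 5 genes held the same order in all 6 libraries, and neighbours in the order did not overlap within a group.

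PAWR itself was a low member of its own network, at 2.80 ± 0.0569 (SD, n = 3) on this scale in control and 3.42 ± 0.187 (SD, n = 3) in RSL3-treated cells. In the control group FBXO45 (3.69 ± 0.105) was above PAWR without overlap. In the RSL3 group, at 3.35 ± 0.227 for FBXO45, they overlapped and their order did not hold across libraries. PRKCZ was far below, at 0.0588 ± 0.0176 in control cells, and over the 6 libraries 1.7% of the genes tested were lower. WT1 was lower still, and AATF is left out of this order. With the longest annotated transcript as the length, DAPK3 stood above SPSB1, at a mean of 34.2 against 30.0 over the 6 libraries, and PAWR above FBXO45, at 3.99 against 3.55, so the order within these pairs depends on the length assumed.

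**Figure D3:**
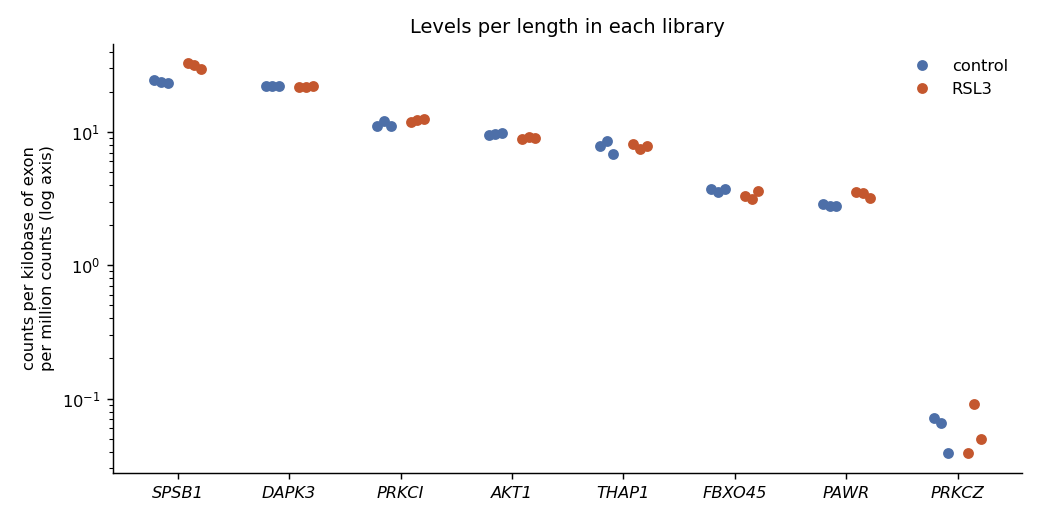
Level of 8 members in each library per length of merged exon (CPM per kilobase, logarithmic vertical axis), in control (blue) and RSL3 (orange), ordered by the mean over 6 libraries; points are libraries. SPSB1 (23.2 to 32.6) is the highest, PAWR (2.77 to 3.57) and FBXO45 (3.14 to 3.76) lie close together, and PRKCZ is below 0.1; WT1 and AATF are left out.

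Around the atypical kinases, 10 of 11 genes of the complex and of cell polarity were tested, and 2 were called higher and 1 lower (30.0%, against 25.6% of all genes tested). SQSTM1, whose product p62 is a scaffold for atypical kinases and a cargo receptor of autophagy, rose with a log2 fold change of 0.55 ± 0.03 (SE), and edgeR gave an adjusted p of 7.74e-11. PARD3, the polarity scaffold that the kinases phosphorylate, rose, with 2007 ± 43.6 normalized counts in control and 2540 ± 58.6 under RSL3 (SD, n = 3 in each), at a log2 fold change of 0.34 and an adjusted p of 1e-06 by edgeR. CDC42, the small GTPase that activates the complex, fell by 0.09 on the log2 scale (edgeR adjusted p = 0.0452). The CDC42 call was lost under 9 of the 14 alternatives, 5 of them fits without 1 library (every one but control replicate 3), the others being DESeq2 size factors, no filter on low counts and DESeq2 with 1 or 2 surrogate variables. LLGL2 had a log2 fold change of 0.75 at under 30 normalized counts (edgeR adjusted p = 0.125). The adapters PARD6A, PARD6B and PARD6G were not called, and CRB3 was not tested. SQSTM1 shares 22.4% and CDC42 15.2% of its exon bases with other genes.

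In the core of NF-kB, the pathway on which atypical kinases act, all 13 genes were tested and 5 were called (38.5%, against 25.6% of all genes tested), 3 higher and 2 lower. RELB, a subunit of the non-canonical branch, rose by 0.30 on the log2 scale (standard error 0.04, edgeR adjusted p = 4.22e-06). The inhibitor genes NFKBIB and NFKBIE rose by 0.38 and 0.32 (edgeR adjusted p = 9.06e-06 and 0.0124). TNFAIP3, a deubiquitinase that dampens the pathway, fell, with 1397 ± 19.4 normalized counts in control and 1040 ± 127.8 under RSL3 (SD, n = 3 in each), at a log2 fold change of -0.42 and an adjusted p of 4.22e-05 by edgeR. IKBKB, the kinase that releases NF-kB, also fell, with a log2 fold change of -0.13 (edgeR adjusted p = 0.02). The IKBKB call was lost under 5 of 14 alternatives (DESeq2 with 1 or 2 surrogate variables, and without control replicate 3, RSL3 replicate 1 or RSL3 replicate 2), and that of NFKBIE under 2 (DESeq2 with 2 surrogate variables, and without RSL3 replicate 2). RELA and NFKB1, the canonical subunits, had log2 fold changes of 0.05 each and were not called. NFKBIA, the best known inhibitor, was at -0.09 and not called, and the median over the list was 0.05.

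Of the 7 other kinases C, 4 were tested and 1 was called (25.0%, against 25.6% of all genes tested). PRKCA, a conventional isoform, fell, with 26080 ± 861.8 normalized counts in control and 24340 ± 308.6 under RSL3 (SD, n = 3 in each), at a log2 fold change of -0.10 and an adjusted p of 0.0141 by edgeR. This call was lost without control replicate 2 and without RSL3 replicate 1. PRKCD, PRKCE and PRKCH had log2 fold changes of 0.07, 0.08 and 0.27 and were not called. PRKCB and PRKCQ had at most 1 count in any library.

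Among 15 genes of AKT signalling and the 14-3-3 proteins, 14 were tested, of which 1 was called higher and 4 lower (35.7%, against 25.6% of all genes tested). AKT2, a relative of AKT1, was not called, with a log2 fold change of -0.05. RICTOR, a subunit of the complex that activates AKT, rose by 0.16 on the log2 scale (edgeR adjusted p = 0.00987). The 14-3-3 genes YWHAQ, YWHAZ and YWHAB fell by 0.16, 0.13 and 0.13, with an edgeR adjusted p of at most 0.00176. YWHAG and YWHAH were not called, at log2 fold changes of 0.08 and -0.09. YWHAE had 149 to 216 raw counts per library and was not called, and SFN was not tested. The YWHAE counts are few beside those of YWHAH, at 2450 to 4052 raw counts per library. The cause was not tested, and the YWHAE counts are not taken as its level.

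All 10 genes of the DAPK family and of myosin control were tested, and 5 were called (50.0%, against 25.6% of all genes tested), 1 higher and 4 lower (12.9% and 12.7% of all genes tested). The relatives of DAPK3, DAPK1 and DAPK2, were not called, at log2 fold changes of -0.24 and -0.30. MYLK, the myosin light chain kinase, fell, with 3918 ± 99.4 normalized counts in control and 2822 ± 85.4 under RSL3 (SD, n = 3 in each), at a log2 fold change of -0.47 and an adjusted p of 3.93e-09 by edgeR. The light chain genes MYL9 and MYL12B fell by 0.27 and 0.12 on the log2 scale, and PPP1CB, the catalytic subunit of myosin phosphatase, by 0.14. ROCK2, which phosphorylates the phosphatase, rose by 0.14 (edgeR adjusted p = 0.0207). The ROCK2 call was lost in DESeq2 with 2 surrogate variables, without control replicate 1 and without RSL3 replicate 2, and that of MYL12B without RSL3 replicate 2. PPP1R12A, the targeting subunit of the phosphatase, was not called.

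Of 14 cofactors of WT1, AATF and THAP1, all were tested and 6 were called (42.9%, against 25.6% of all genes tested), 2 higher and 4 lower. WTAP, named for its binding to WT1 and a subunit of the enzyme that writes N6-methyladenosine, fell, with 6730 ± 145.2 normalized counts in control and 4472 ± 259.3 under RSL3 (SD, n = 3 in each), the largest change of the list, at a log2 fold change of -0.59 and an adjusted p of 3.23e-10 by edgeR. The acetyltransferase genes CREBBP and EP300 rose by 0.17 and 0.12 on the log2 scale. OGT, which works with THAP1 and HCFC1, PML, the scaffold of the bodies where THAP1 and Par-4 meet, and RB1 fell by 0.17, 0.14 and 0.16. In OGT the libraries of the groups overlapped. WTAP kept its call under all 14 alternatives. OGT lost it under 6 (DESeq2 in all 3 settings, and without control replicate 3, RSL3 replicate 1 or RSL3 replicate 2). RB1 also lost it under 6 (DESeq2 with 1 or 2 surrogate variables, and without control replicate 1, control replicate 2, RSL3 replicate 1 or RSL3 replicate 2). PML lost it under 4 (DESeq2 with 1 or 2 surrogate variables, and without control replicate 3 or RSL3 replicate 1), and EP300 under 3 (DESeq2 with 2 surrogate variables, and without control replicate 1 or RSL3 replicate 2). Of 11 relatives of THAP1, 1 was called (9.09%, against 25.6% of all genes tested), THAP12, which rose by 0.20 (standard error 0.05, edgeR adjusted p = 0.00749), and the log2 fold changes of the family lay between -0.12 and 0.20.

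Other proteins that bind, modify or receive Par-4 gave 13 genes tested of 17, with 3 called higher and 2 lower (38.5%, against 25.6% of all genes tested). HSPA5 (GRP78), an endoplasmic reticulum chaperone that at the cell surface is the receptor of secreted Par-4, rose by 0.33 on the log2 scale (standard error 0.03, edgeR adjusted p = 3.7e-09). UACA, which binds Par-4 and holds back its secretion, fell, with 725.2 ± 16.3 normalized counts in control and 537.0 ± 32.6 under RSL3 (SD, n = 3 in each), at a log2 fold change of -0.43 and an adjusted p of 8.48e-05 by edgeR. VIM, the intermediate filament vimentin, also a binding partner in the secretory route, fell by 0.29 (edgeR adjusted p = 2.2e-08), though it shares 24.6% of its exon bases with other genes. CSNK2A2 and PRKACA, catalytic subunits of kinases that phosphorylate Par-4, rose by 0.12 and 0.14, and CSNK2A2 shares 35.7% of its exon bases. The PRKACA call was lost under 6 of 14 alternatives (DESeq2 with 1 or 2 surrogate variables, and without control replicate 1, control replicate 2, RSL3 replicate 1 or RSL3 replicate 3), and that of CSNK2A2 in DESeq2 with 2 surrogate variables. BCL2, which Par-4 and WT1 repress, had 676.1 ± 51.3 (SD, n = 3) normalized counts in control and 689.6 ± 19.2 (SD, n = 3) in RSL3-treated cells (edgeR adjusted p = 0.803). CASP8 and FADD, of the apoptotic route that Par-4 uses, were not called, and FADD shares 59.2% of its exon bases with another gene. CSNK2B, RASSF2, DRD2 and SLC5A7 had too few counts. CSNK2B, a gene of broad use, lies like AATF among genes with low counts. Of the protein-coding genes within 1 Mb of CSNK2B, 88.5% had a mean below 10. This share was 32.9% around SPSB3 and 33.3% around YWHAE, against 35.6% of all protein-coding genes. The cause of the low counts was not tested.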

How the data were processed

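Poly(A) RNA of U87MG cells was sequenced in 6 libraries. According to the study's methods and the submitters' processing notes, the authors trimmed reads (Trimmomatic 0.36, Fastp), used HISAT2 for alignment (GRCh38.p4) and HTSeq 0.6.1p1 to count reads on exons without regard to strand. The annotation release is not given in the sources used here. The deposited values are raw counts per Ensembl gene, without normalization. The authors tested with DESeq2 after surrogate variable analysis, with the number of variables not given.

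The main test was that of edgeR 4.0.16 under R 4.3.3 (filterByExpr with a minimum count of 10, TMM, quasi-likelihood F test, Benjamini-Hochberg, threshold 0.05, no covariates). Of the identifiers, 56434 had a symbol. Intervals of 95% use a standard error derived from the F statistic. They also use the fit's total degrees of freedom (20.5 for each member tested), which add prior degrees of freedom, shared across genes, to the residual ones. The test was also run on simulated counts with 200 genes changed and libraries drawn independently. That setting differs from these data, with 4123 genes called and libraries that may be technical replicates, and no result here rests on it. Members and lists were chosen from general knowledge with earlier results of these data known. All members are named, with up to 4 genes of smallest p per list; others were chosen after their values were seen. A protein table was not used here. Exon lengths, overlaps and coding sequences are from GENCODE v44, promoters from RefSeq. The alternatives, including DESeq2 1.42.0 with surrogate variables from sva 3.50.0, are given in the closing section. Some genes counted in the lists are not reported here by name.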

Additional observations from a re-analysis of the deposited data

How the results depend on the processing

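SPSB1 and PAWR were called in the same direction under all 14 alternatives run, with an adjusted p of at most 5.83e-06 for SPSB1 and 0.00554 for PAWR. The call of AKT1 was lost with no filter on low counts (log2 fold change -0.103, edgeR adjusted p = 0.0579), in DESeq2 with 1 surrogate variable (-0.101, adjusted p = 0.0788) and with 2 (-0.101, adjusted p = 0.208). With single libraries left out AKT1 ranged from -0.116 to -0.089, and its call was kept only at -0.116, without control replicate 1. PRKCI ranged from 0.072 to 0.145 with libraries left out and was called only without control replicate 2. Values of members that were never called changed sign: PRKCZ to -0.003 with the replicate block and within -0.392 to 0.251 with libraries left out (below 0 without control replicate 3, at -0.193, and without RSL3 replicate 2, at -0.392), and THAP1 within -0.06 to 0.089 (below 0 without control replicate 3, at -0.06, and without RSL3 replicate 1, at -0.015). The number of members called was 2 or 3 throughout.

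Over all genes, DESeq2 with 2 surrogate variables called 2268 against 4123 in the main test. That setting also called 3 genes of the NF-kB core, 1 of the cofactors (WTAP), 0 of the THAP family and 3 of the other PAWR-linked genes, and with 1 surrogate variable 3 cofactors were called. A minimum of 10 counts in every library gave 2 THAP genes. Leaving out single libraries gave 3 to 5 genes of the NF-kB core (3 without RSL3 replicate 2), 0 to 1 of the other kinases C (0 without control replicate 2 and without RSL3 replicate 1), 3 to 5 of the DAPK and myosin list (3 without RSL3 replicate 2), 3 to 6 cofactors (3 without RSL3 replicate 1 and without RSL3 replicate 2) and 1 to 2 THAP genes (2 without control replicate 1 and without RSL3 replicate 3). The cause of these changes was not tested.

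The labels number the replicates alike in both groups. Same-numbered libraries had small positive correlations of their deviations from the group means, at 0.0222, 0.0273 and 0.0745. Other pairs of a control and an RSL3 library ran from -0.0514 to 0.0242. RSL3 replicates 2 and 3 correlated best with the control library of their own number. RSL3 replicate 1 did so with control replicate 2, by a small margin (0.0242 against 0.0222). These values do not settle whether the numbers mark pairs, and the main test does not use them as pairs. A fit with the replicate block called 4633 genes, 1 of the ligase parts (RNF7) and 3 of the THAP family, and changed no member's call. DESeq2 with 2 surrogate variables also lost RICTOR, THAP12 and CREBBP. The low counts of PRKCZ, WT1 and AATF limit what can be said of them, and counting without strand limits PRKCZ and THAP1.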
